A study of Mus musculus with 2 samples.

Results

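The collagen and laminin chains of the mouse were followed in single cells of the parotid gland, a salivary gland. A gene was taken as a member by its symbol alone. The symbol was Col, a number, the letter a and a number, or Lam, the letter a, b or c and a digit. This rule uses no measured value, but it was set with earlier results of these data known. The rule gave 55 genes, 44 collagen chains and 11 laminin chains, of the 48825 genes listed for both libraries. Of the 55, 40 had at least 10 unique molecular identifiers (UMIs, each counting 1 captured RNA molecule) over both libraries. Another 10 had 1 to 9 UMIs, namely Col4a3, Col4a6, Col8a1, Col8a2, Col9a2, Col10a1, Col11a1, Col19a1, Col28a1 and Lama1. The remaining 5, Col2a1, Col9a1, Col22a1, Col24a1 and Col26a1, had no UMI in the cells kept, which at this depth does not show that they were absent.

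The study asked how irradiation (IR) leaves the gland long after exposure. Wild type (WT) female C3H mice, 6 to 10 weeks old, received 6 Gy a day to the head and neck for 5 days, 30 Gy in total, and their parotid glands were dissociated 10 months later. Control glands came from untreated C3H WT females. The glands of 2 mice were pooled into 1 droplet library for each condition, so that the animals could not be separated and the difference between conditions has no replicate. No p-value is given for this reason, and treatment, pool, dissociation and library cannot be told apart.

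After filtering 3378 control cells and 5286 IR cells were kept, and the median cell held 2908 and 2462 UMIs. The libraries shared 12 cell barcodes, 3 of them among kept cells of both. Cells were clustered without the 55 genes and the clusters were called after marker genes that are not members, so "stromal" or "endothelial" below means stromal-like or endothelial-like by those markers. All 12 stromal markers had a UMI in the stromal cells of each library and all 11 endothelial markers in the endothelial cells. These lists named the clusters, so such counts describe the cells and do not check the names. Other lists were also seen, such as 8 of 8 pericyte markers in control and 6 of 6 lymphatic endothelial markers in IR stromal cells. Of the Etv1+ cells, 235 of 246 (control) and 225 of 236 (IR) held at least 2 of 8 Etv1+ markers. Barcodes left out for over 5% mitochondrial UMIs, 1260 in control and 1858 in IR, held another 751 and 921 member UMIs. RNA of acinar cells, the main secretory cells, was present throughout: the 10 acinar markers summed to 45313 CPM (UMIs per 1000000 UMIs of the same cells) in control stromal cells and 24124 CPM in IR stromal cells, and their part in the results was not tested.

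Collagens are built from 3 chains that wind into a triple helix, in which glycine recurs with a pair of other residues after it. Fibrillar collagens (types I, III and V) make the ropes of connective tissue and are made mainly by fibroblasts, type VI forms beaded microfibrils between them, and fibril-associated collagens coat their surface. Type IV collagen and laminins, cross-shaped trimers of an alpha, a beta and a gamma chain, form the basement membrane under epithelium, around blood vessels and around muscle. In salivary glands this sheet surrounds acini, ducts and vessels, while type VII collagen forms the anchoring fibrils that tie an epithelial basement membrane to the tissue below it.

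The repeat that defines a collagen can be read in the coding sequence. Glycine codons all begin with GG (GGN), and the longest stretch of such a codon followed by 2 others was 23 to 344 repeats long in the 44 collagens, with a median of 58, and 2 to 3 in the 11 laminins. It held 344 repeats in Col3a1, 339 in Col1a2 and 338 in Col1a1, the chains of long unbroken helices. In Col4a1 it held 40, in Col7a1 75 and in Col13a1 44, since these helices are broken by interruptions. One coding exon each of 6 collagens on which the results turn is shown, from the mouse GENCODE M21 annotation of GRCm38 (mm10), with the GGN codons of the repeat in capitals and each exon written 5′ to 3′ on the strand of its gene.
Col1a1, exon 8 of 51, chr11:94939904-94939957, plus strand: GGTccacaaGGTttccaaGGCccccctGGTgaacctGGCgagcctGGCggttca
Col3a1, exon 6 of 51, chr1:45325360-45325413, plus strand: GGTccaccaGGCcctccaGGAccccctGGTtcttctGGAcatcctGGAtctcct
Col4a1, exon 7 of 52, chr8:11245211-11245264, minus strand: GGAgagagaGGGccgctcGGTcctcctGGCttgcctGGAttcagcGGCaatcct
Col6a1, exon 9 of 35, chr10:76719623-76719676, minus strand: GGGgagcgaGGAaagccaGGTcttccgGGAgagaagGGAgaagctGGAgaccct
Col7a1, exon 107 of 119, chr9:108980207-108980260, plus strand: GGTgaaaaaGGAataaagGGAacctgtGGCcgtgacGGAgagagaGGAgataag
Col13a1, exon 28 of 41, chr10:61863941-61864003, minus strand: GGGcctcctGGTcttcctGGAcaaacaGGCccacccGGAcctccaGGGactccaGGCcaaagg
The first 5 exons are 54 bases long and hold 6 repeats each, and the Col13a1 exon is 63 bases long and holds 7.

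The 55 genes lie on 17 chromosomes and all were found in the annotation. Of them, 34 overlap another annotated gene and 20 overlap one on their own strand, in no case a coding gene. Col4a1 and Col4a2, the chains of the most widespread type IV collagen, start head to head on chromosome 8 at 11312826 (minus strand) and 11312805 (plus strand). RefSeq gives 44 promoter windows for 40 of the members, of which the 250 bases before the start were read on both strands. GGGCGG was present in 24 of the 44 windows (54.5%) against 32.7% of 32851 mouse promoters, and CCAAT in 14 (31.8%) against 33.9%. TATAAA was present in 5 (11.4%) against 12.4%, and CCGGAA, a core that ETS factors such as Etv1 can bind, in 0 against 12%. The 4 motifs were chosen by name and these shares are descriptions of letters, not of binding.

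The promoter window of Col7a1 is shown because this was the member called high in Etv1+ cells, as it also was in a mixed cluster with myoepithelial markers. It spans chr9:108953336-108953585 on GRCm38, plus strand, upstream of the first exon, and the capitals mark GGGCGG at -61 and a CCAAT on the reverse strand at -249, counted from the RefSeq start.
Col7a1: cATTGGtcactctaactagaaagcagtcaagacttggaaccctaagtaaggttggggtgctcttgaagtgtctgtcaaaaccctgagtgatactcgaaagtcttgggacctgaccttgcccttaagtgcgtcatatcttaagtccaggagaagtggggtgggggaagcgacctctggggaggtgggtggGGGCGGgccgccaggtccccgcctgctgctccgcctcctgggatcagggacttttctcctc

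Members were counted as UMIs captured at the 3′ end and are not scaled by transcript length, so the order of 2 genes is an order of UMIs. Intervals are exact 95% intervals and cover counting error only, not differences between mice. Over all kept cells the members took 3714 UMIs (195 CPM) in the control library and 2475 (122 CPM) in the IR library. The 34 control stromal cells held 1882 of them (50.7%) and the 21 IR stromal cells 563 (22.7%), and the endothelial cells, 80 and 41, held 737 (19.8%) and 472 (19.1%). The summed level was 8864 CPM in control stromal cells, 2300 CPM in endothelial cells, 207 CPM in a mixed cluster with myoepithelial markers, 148 CPM in B-cells, 53.3 CPM in T and natural killer (NK) cells, 36.4 CPM in Etv1+ cells and 9.75 CPM in acinar cells. The IR library kept the first 5 of these in the same order, at 5688, 2610, 223, 170 and 71.4 CPM, followed by 37.4 CPM in Etv1+ and 10.7 CPM in acinar cells. The order depended on the RNA total. Without abundant genes (secretory, mitochondrial, haemoglobin and Gm42418) Etv1+ cells stood above T and NK cells. The levels were 102 against 58.1 CPM in control and 95.4 against 77.6 CPM in IR. Per cell, Etv1+ cells held 0.988 and 0.636 member UMIs, and T and NK cells 0.178 and 0.188.

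**Figure D1:**
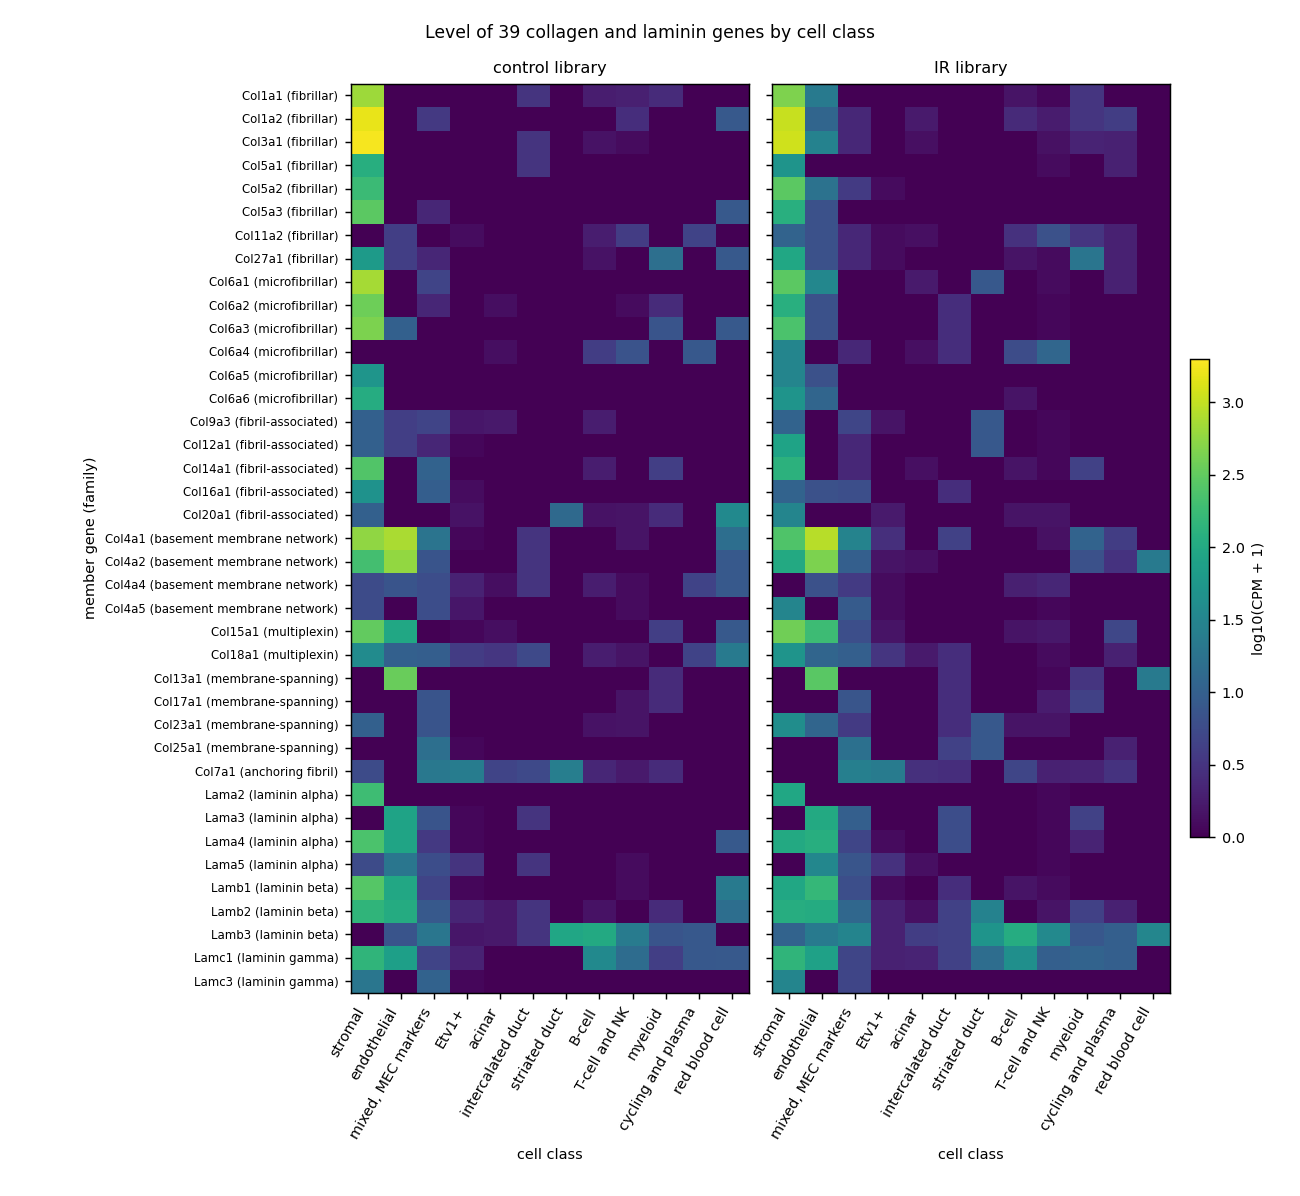
Level of 39 of the members with at least 10 UMIs (rows, by family) in each cell class (columns), as log10(CPM + 1), in the control library (left) and the IR library (right). Col1a1, Col1a2, Col3a1, Col6a1, Col6a2 and Col6a3 are brightest in stromal cells and Col4a1, Col4a2 and Col13a1 in endothelial cells, while Col7a1 is seen in Etv1+ and mixed cells and Lamb3 and Lamc1 also in lymphocytes; the mixed cluster is that with myoepithelial (MEC) markers.

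Of the 40 genes with at least 10 UMIs, 18 had the most UMIs in stromal cells, 7 in the mixed cluster, 5 in endothelial cells and 4 in Etv1+ cells. The most UMIs need not be a majority of a gene's UMIs, and a tied gene was placed in a single class. Col16a1 was placed in stromal cells and tied with the mixed cluster. Col9a3 was placed in the mixed cluster and tied with Etv1+ cells, and Col20a1 in Etv1+ cells and tied with T and NK cells. Lymphoid and myeloid cells held the most UMIs of the other 6. Col4a1, Col4a2, Col13a1, Lama3 and Lamb2 were most counted in endothelial cells, and Col7a1, Col18a1, Lama5 and, by the tie, Col20a1 in Etv1+ cells. Summed UMIs also follow the number and depth of the cells in a class. By CPM Col4a1, Col13a1 and Lama3 were still highest in endothelial cells and Col7a1 in Etv1+ cells. Lamb2 was higher in stromal (141 and 111 CPM) than in endothelial cells (106 and 105 CPM). Lama5 was at 18.7 and 33.2 CPM in endothelial and 2.09 and 1.99 CPM in Etv1+ cells. Col18a1 was higher in stromal than in Etv1+ cells. Lamb3 and Lamc1 were most counted in B-cells, Col4a4, Col6a4 and Col11a2 in T and NK cells, and Col27a1 in myeloid cells.

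Stromal cells carried the fibril-forming collagens. In the control library the 11 fibrillar genes took 987 UMIs (4649 CPM, interval 4363 to 4948), which was 52.4% of all member UMIs of these cells, and in the IR library 319 (3223 CPM, 2879 to 3596), or 56.7%. Col3a1, the type III chain found beside type I in distensible tissue, was the most counted member of these cells, with 380 UMIs in 32 of 34 control cells (1790 CPM) and 115 UMIs in 14 of 21 IR cells (1162 CPM). Col1a2, the second chain of type I collagen, followed at 1554 CPM in control and 1041 CPM in IR. Its partner Col1a1 was at 655 and 455 CPM.

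The share of Col1a1 in the UMIs of type I chains was much the same in both libraries, 29.6% in control and 30.4% in IR. All 28 control cells with a Col1a2 UMI also had a Col1a1 UMI, as did 15 of 17 IR cells. The type V chains, which start fibril assembly, were lower: Col5a3 was at 292 and 121 CPM, Col5a2 at 179 and 293 CPM and Col5a1 at 118 and 50.5 CPM, in control and IR in that order. Outside stromal cells the control library held no Col5a2 UMI, and 3 Col3a1 UMIs.

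Type VI genes were the next most counted family of stromal cells, with 359 UMIs (1691 CPM) in control and 75 (758 CPM) in IR. Col6a1 was at 711 and 293 CPM, Col6a3 at 443 and 232 CPM and Col6a2 at 377 and 121 CPM. The alternative chains Col6a5 and Col6a6 had 11 and 23 UMIs in control, none of them outside stromal cells, and 3 and 5 in IR stromal cells. Of the collagens that coat fibrils, Col14a1 was at 250 and 131 CPM, Col16a1 had 10 and 1 UMIs, and Col12a1 had 2 and 8. Col15a1, a multiplexin that joins the basement membrane to nearby fibrils, was at 325 CPM in control and 384 CPM in IR stromal cells.

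Stromal cells also held basement membrane genes. Col4a1 had 120 control UMIs (565 CPM) and 24 in IR (242 CPM), and Col4a2 44 (207 CPM) and 10 (101 CPM). Of the laminin alpha chains, Lama4 was at 231 and 101 CPM and Lama2, the alpha chain of muscle and nerve basement membranes, at 188 and 90.9 CPM. All 40 Lama2 UMIs of the control library, and 9 of 10 in the IR library, were in stromal cells. Lamb1 was at 268 and 90.9 CPM, Lamb2 at 141 and 111 CPM, and Lamc1, the gamma chain that most laminins share, at 141 CPM in each library.

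By a rule of size, a member was called high in a class when it had at least 10 UMIs in at least 3 of its cells and at least 2 times the CPM of the other cells of its library. A gene with few UMIs elsewhere passes the first condition only where it is high, so the counts are descriptions. In control stromal cells 22 members reached 10 UMIs and 22 were high, where 62.5% of the 3092 genes measured that way were. In IR stromal cells it was 15 of 15, where 55% of 1537 were. The 15 were among the 22, and the 7 others were Col5a1, Col6a5, Col6a6, Col16a1, Col27a1, Lama2 and Lamb1, which did not reach 10 UMIs in the 21 IR cells. The median CPM ratio to other cells was 1293 over the 22 and 494 over the 15.

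The cells of one class were far from uniform. In control stromal cells the summed members ranged from 261 to 33237 CPM with a median of 8515, and in IR cells from 646 to 21939 CPM with a median of 6241, so the 2 ranges overlapped. The median cell held UMIs of 14.5 members in control and of 11 in IR, and the most in a cell was 21 in each. The 3 cells richest in member UMIs held 22.6% of those of the control stromal cells and 33.0% of those of the IR stromal cells.

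**Figure D2:**
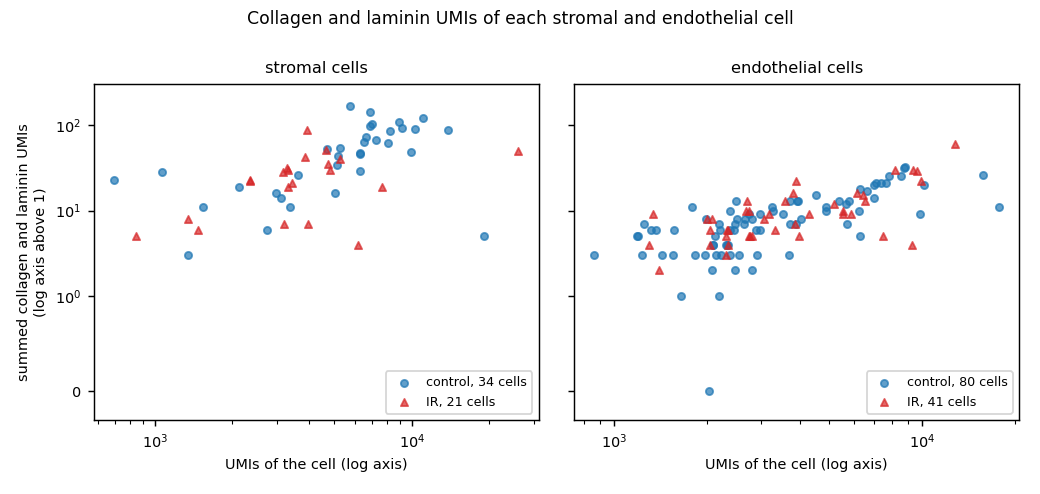
Summed UMIs of the 55 genes in each cell (vertical, log axis above 1) against all UMIs of that cell (horizontal, log axis) for stromal cells (left) and endothelial cells (right); circles are control cells and triangles IR cells. In each panel the control and IR cells overlap, and 1 control endothelial cell has no member UMI.

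In stromal cells the summed member level was lower in the IR library, at 0.642 times control (0.583 to 0.705). The collagens stood at 0.650 times (0.588 to 0.719) and the laminins at 0.574 times (0.421 to 0.772). The deepest IR stromal cell held 26032 of the 98989 UMIs of these cells, but 49 of their 563 member UMIs. Its depth thus weighed on the IR level, and leaving out this cell alone was not tested. Both narrower sets of stromal cells described below are without it. Of the 24 members with at least 10 UMIs over both libraries, 11 were lower by 2 times or more (Col4a1, Col4a2, Col5a1, Col5a3, Col6a1, Col6a2, Col6a6, Col16a1, Lama2, Lama4 and Lamb1) and 1 was higher (Col12a1). Of all 4423 genes compared in the same way, 13.7% were lower and 13.6% higher. The median ratio was 0.525 over the 24 and 1.02 over all genes.

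Type VI and type IV collagen were among the lower genes with the most UMIs. Col6a1 stood at 0.412 times control (0.267 to 0.616), Col6a2 at 0.322 times (0.160 to 0.594) and Col4a1 at 0.429 times (0.265 to 0.669). Lamb1 stood at 0.339 times (0.147 to 0.689) and Lama4 at 0.438 times (0.198 to 0.875). The fibrillar genes with the most UMIs lay closer to 1: Col3a1 at 0.649 times (0.522 to 0.802), Col1a2 at 0.669 times (0.531 to 0.838) and Col1a1 at 0.694 times (0.485 to 0.978). The intervals of Col5a2, 1.64 times (0.974 to 2.73), Col15a1, 1.18 times (0.773 to 1.78), and Lamc1, at 141 CPM in each library (0.490 to 1.95), included 1.

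Col12a1, a fibril-associated collagen known from tissue under load, was the one member higher in IR stromal cells, at 8.58 times with an interval of 1.71 to 82.9 from 2 and 8 UMIs. Of the 8 UMIs, 3 were in cells with more stromal than pericyte markers, 3 in 2 cells with at least as many pericyte markers and 2 in 2 cells with neither.

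Other measures moved together with the stromal members. The median stromal cell held 6277 UMIs in control and 3434 in IR. The 12 stromal markers, none of them a member, were at 49005 CPM in control and 31650 CPM in IR, 0.646 times (0.620 to 0.672), with 6 of the 12 lower by 2 times or more. The 8 pericyte markers, for the contractile cells that wrap small vessels, were at 316 CPM (8 of 8 detected) and 556 CPM (6 of 8, Higd1b and Ndufa4l2 at 0), and the 11 endothelial markers at 146 CPM (7 of 11) and 758 CPM (9 of 11). The cells with more stromal than pericyte markers, counted without Vim and Gsn and chosen after seeing the data, were 32 of 34 in control and 17 of 21 in IR. In them the summed members were at 8967 and 7823 CPM, 0.872 times (0.788 to 0.965), and 4 of 23 members were lower and 2 higher by 2 times or more.

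In the cells with more stromal than pericyte markers the major fibrillar genes lay near 1. Col1a1 stood at 1.07 times (0.742 to 1.51), Col3a1 at 1.02 times (0.821 to 1.26) and Col1a2 at 0.943 times (0.741 to 1.19). The values were 0.580 times (0.367 to 0.884) for Col6a1, 0.562 times (0.332 to 0.908) for Col4a1, 0.410 times (0.143 to 0.957) for Lama4 and 0.411 times (0.158 to 0.903) for Lamb1. Col5a2 stood at 2.33 times (1.31 to 4.09). Without the 3 richest stromal cells of each library the sum was 0.758 times control (0.675 to 0.850), with 6 of 23 members lower and 1 higher. The median ratio over the members compared was 0.586 in that set and 0.720 in the cells with more stromal than pericyte markers. The values near 1 for the major fibrillar genes are those of the latter cells only, and do not show that these genes were unchanged. How far the makeup of the 21 IR stromal cells set the lower member level was otherwise not tested.

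**Figure D3:**
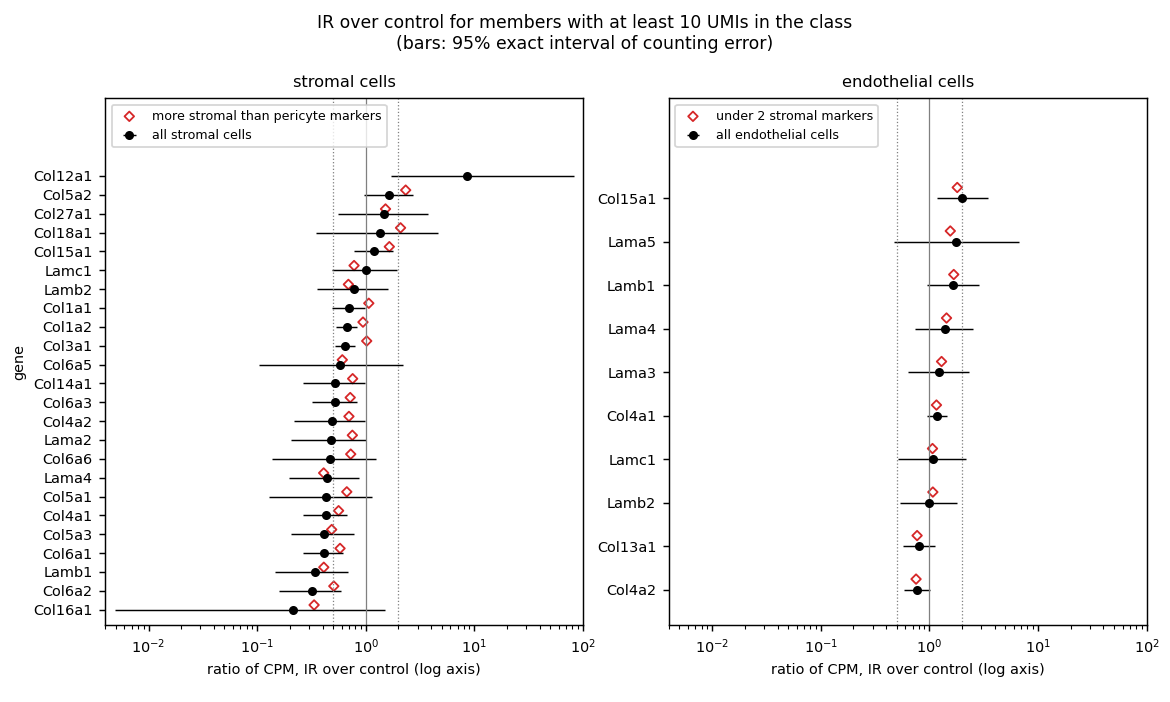
CPM ratio, IR over control (horizontal, log axis), of each member with at least 10 UMIs over both libraries in stromal cells (left) and endothelial cells (right); black points and bars give all cells of the class with the exact 95% interval of counting error, red diamonds the narrower set of cells, and dotted lines mark 0.5 and 2. Most stromal members lie left of 1 for all stromal cells, Col1a1, Col1a2 and Col3a1 move to about 1 in the narrower set, and endothelial members lie around 1.

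Endothelial cells expressed a basement membrane set. Col4a1 was their most counted member, with 243 UMIs in 65 of 80 control cells (758 CPM, 666 to 860) and 161 UMIs in 37 of 41 IR cells (890 CPM, 758 to 1039). Col4a2 was at 580 and 448 CPM. Against stromal cells of the same library Col4a1 was 1.34 times (1.07 to 1.68) as high in control and 3.67 times in IR, and Col4a2 2.80 and 4.43 times. Col4a1 took 56.6% (51.8 to 61.4) of the UMIs of the pair in control endothelial cells and 73.2% (65.7 to 79.8) in control stromal cells, and 66.5% (60.2 to 72.4) and 70.6% (52.5 to 84.9) in IR.

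Col13a1, a collagen that spans the cell membrane, was counted in endothelial and not in stromal cells. It had 114 UMIs in 47 of 80 control endothelial cells (356 CPM) and 52 in 23 of 41 IR endothelial cells (288 CPM), and 0 in the stromal cells of both libraries. Set against a floor of 3 UMIs in the stromal cells, it was at least 25.2-fold higher in endothelial cells in control and at least 9.49-fold higher in IR. Endothelial cells held 94.9% of all Col13a1 UMIs.

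Laminin chains of all 3 kinds were present in endothelial cells. Lama4, the main alpha chain of vessel laminins, was at 84.2 CPM in control and 116 CPM in IR, and Lama5, the other vessel alpha chain, had 6 UMIs in each. Lama3, better known as the alpha chain of epithelial anchoring laminin, was at 81.1 and 99.5 CPM and had 0 UMIs in stromal cells, at least 5.74-fold and at least 3.28-fold lower there by the same floor. Lamb1 was at 93.6 and 155 CPM, Lamb2 at 106 and 105 CPM and Lamc1 at 71.8 and 77.4 CPM, and Col15a1 at 90.5 and 182 CPM. In control the order of the chains was Lamb2, Lamb1, Lama4, Lama3 and Lamc1, and the interval of each overlapped that of the next.

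Lama2 had no UMI in endothelial cells of either library, and fibrillar genes had 2 UMIs in the 80 control cells. In IR 17 fibrillar UMIs were counted, 4 of Col1a1 and 5 of Col3a1 each in 1 cell, and 1 IR cell held 120 of the 122 UMIs of Dcn, a fibroblast proteoglycan with 2 UMIs in control endothelial cells.

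By the rule of size 9 of 9 members were high in endothelial cells in each library (Col4a1, Col4a2, Col13a1, Col15a1, Lama3, Lama4, Lamb1, Lamb2 and Lamc1), where 67.3% of 4499 genes were in control and 54.5% of 3081 in IR. The summed level was 2300 CPM in control and 2610 CPM in IR, 1.14 times (1.01 to 1.28), and its direction turned with the choice of cells: it was 0.973 times when cells with up to 10% mitochondrial UMIs were kept, 0.478 times with classes set from fixed markers, where 1 of 11 members was higher and 5 were lower by 2 times, and 0.919 times in the latter without cells of epithelial clusters. The median endothelial cell held 2762 and 3321 UMIs. The 11 endothelial markers stood at 0.990 times (0.945 to 1.04). Of 10 members with at least 10 UMIs, 1 was higher by 2 times or more, Col15a1 at 2.02 times (1.19 to 3.44), and 0 were lower, where 9.61% and 7.52% of 6153 genes were. Col4a2 stood at 0.772 times and Col13a1 at 0.808 times, and Col4a1 at 1.17 times.

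Markers of other cells differed between the endothelial cells of the 2 libraries. The 5 red blood cell markers summed to 8711 CPM in control (5 of 5 detected) and 293 CPM in IR (4 of 5, Alas2 at 0), the 10 acinar markers to 41572 CPM (10 of 10) and 24703 CPM (9 of 10, Aqp5 at 0), and the 13 T-cell markers to 31.2 CPM (6 of 13) and 398 CPM (10 of 13). Their part in the result was not tested. Summed stromal markers in endothelial cells were 715 CPM (5 of 12 detected) in control and 1747 CPM (10 of 12) in IR, and pericyte markers 31.2 CPM (2 of 8) and 133 CPM (5 of 8). Without cells holding 2 or more stromal markers, again leaving out Vim and Gsn, 79 and 40 cells remained. Their summed ratio was 1.05 (0.930 to 1.19), Col15a1 stood at 1.81 times (1.03 to 3.14), and 0 of 10 members were past 2 times.

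**Figure D4:**
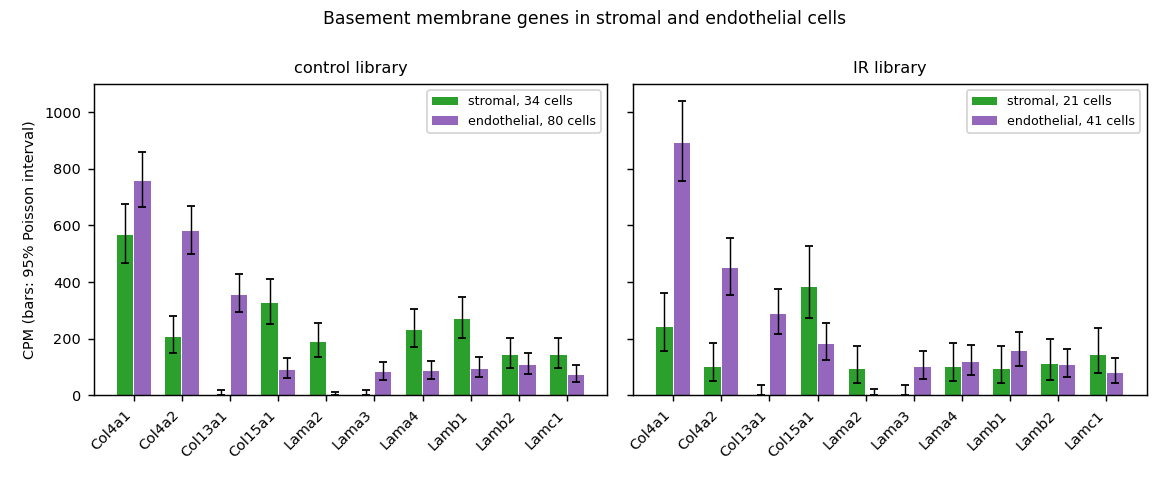
CPM of 10 basement membrane and membrane-spanning members in stromal and endothelial cells of the control library (left) and the IR library (right), with exact 95% Poisson intervals. Col4a2 and Col13a1 are higher in endothelial than in stromal cells of both libraries, Col13a1 and Lama3 are at 0 in stromal cells, and Lama2 is at 0 in endothelial cells.

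Etv1+ cells, epithelial cells marked by the ETS factor gene Etv1, expressed few members apart from Col7a1. The 246 control cells held 243 member UMIs and the 236 IR cells 150, and Col7a1 made up 156 and 91 of them (64.2% and 60.7%). It was at 23.3 CPM (19.8 to 27.3) in control and 22.7 CPM (18.3 to 27.8) in IR, 7.41 and 8.23 times the other cells of the library, and 6.31 (3.43 to 12.9) and 12.3 (5.09 to 38.8) times acinar cells. Etv1+ cells held 74.6% of all Col7a1 UMIs. It was the only member high in Etv1+ cells by the rule of size in either library, out of 3 with at least 10 UMIs in control and 1 in IR. Of all genes measured that way, 8.96% were high in control and 10.7% in IR.

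A Col7a1 UMI was found in 99 of 246 control Etv1+ cells (40.2%) and 74 of 236 IR cells (31.4%), against 0.358% and 0.958% of B-cells and 2.10% and 1.32% of acinar cells. The depth of these classes differed, with median UMIs of 20065 and 5424 in Etv1+ cells, 2539 and 2175 in B-cells and 5311 and 5442 in acinar cells. After each cell was thinned to 1000 UMIs the shares were 5.56% of 216 and 6.28% of 191 Etv1+ cells, 0.243% and 0.617% of B-cells and 0.272% and 0% of acinar cells. Shallower cells were left out of these shares, 30 control and 45 IR Etv1+ cells among them.

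Splitting the Etv1+ cells by depth gave a shallow group (clusters with a median under 1500 UMIs, 63 and 79 cells) and a deep group (183 and 157 cells). Col7a1 was at 453 CPM (319 to 625) and 316 CPM (213 to 451) in the shallow cells, and at 18.02 CPM and 15.6 CPM in the deep ones, 25.2 and 20.3 times apart. Per cell the groups were near each other, with 0.587 and 0.380 Col7a1 UMIs in shallow cells and 0.650 and 0.389 in deep cells. The same gene was thus at a high share of a small RNA total and a low share of a large one. Leaving the abundant secretory genes out of the total gave 769 and 545 CPM in shallow cells and 51.0 and 40.2 CPM in deep cells. The shallow cells held no laminin UMI, and the deep ones 41 and 27 (6.21 and 6.89 CPM). The shallow cells held only 81632 and 94894 UMIs of all genes. At that depth a laminin level like that of the deep cells could go uncounted, so this does not set the groups apart.

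Among other members, Col18a1, the multiplexin that yields endostatin, had 19 and 9 UMIs in Etv1+ cells (2.84 and 2.24 CPM) and was at 37.7 and 50.5 CPM in stromal cells. Lama5, the alpha chain of most adult epithelial basement membranes, had 14 and 8 UMIs (2.09 and 1.99 CPM), against 0 and 1 in acinar cells. Lamb3, a laminin beta chain of epithelia, had 4 UMIs in each library.

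Between libraries the summed level of Etv1+ cells was 36.4 CPM in control and 37.4 CPM in IR, 1.03 times (0.833 to 1.27). Col7a1 stood at 0.971 times (0.742 to 1.27), and at 0.864 times (0.624 to 1.19) in the deep and 0.697 times (0.416 to 1.16) in the shallow cells. Of 5 members with at least 10 UMIs (Col7a1, Col18a1, Lama5, Lamb2 and Lamc1) 0 were higher and 0 lower by 2 times, where 8.55% of 9811 genes were higher and 2.99% lower. The median ratio was 0.952 over the 5 and 1.19 over all genes. All 5 were below 1, where 30.6% of all genes were. The 8 Etv1+ markers stood at 1.39 times.

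The mixed cluster with myoepithelial markers, 22 control and 29 IR cells, held 167 and 172 member UMIs. Myoepithelial cells are contractile cells that clasp acini from inside the basement membrane. These cells were deep (median 37133 and 19662 UMIs). At least 2 acinar markers were found in all 22 and all 29 cells. At least 2 Etv1+ markers were found in 21 and 27, and at least 2 intercalated duct markers in 20 and 26. At least 2 myoepithelial markers were found in fewer, 11 and 13 cells. The 10 myoepithelial markers summed to 1327 and 778 CPM, and the 5 intercalated duct markers to 221350 and 215685 CPM. The levels thus belong to the cluster and not to myoepithelial cells or any other single cell type. Lamb3 had 15 and 23 UMIs, 0.979 and 1.07 times other cells and thus not high by the rule of size, and Lama3 had 5 and 7. Col7a1, the chain of anchoring fibrils, had 16 and 20 UMIs (19.8 and 25.9 CPM), 0.850 (0.474 to 1.42) and 1.14 (0.667 to 1.87) times Etv1+ cells.

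Col17a1, the collagen of hemidesmosomes, had 5 UMIs in each library and 23 in all. Col25a1, a membrane-spanning collagen, had 12 UMIs in each library and 29 over all cells. By the rule of size Col7a1 and Col25a1 were high there in both libraries and Col4a1 in IR, where 17.6% of 3866 genes were in control and 18.1% of 3878 in IR.

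Of 13 members with at least 10 UMIs in this cluster, 0 were higher in IR by 2 times, and Lamc3, a laminin gamma chain, was lower at 0.392 times from 8 and 3 UMIs, where 9.51% and 8.72% of 6180 genes were higher and lower. The 10 myoepithelial markers stood at 1327 CPM in control and 778 CPM in IR, 0.586 times (0.530 to 0.649). Another 3 control and 5 IR cells, led by the smooth muscle genes Myh11 and Acta2 and left unnamed, held 4 and 15 member UMIs.

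Laminin chains were also found in lymphocytes, cells that circulate and do not rest on a basement membrane. Lamb3 had more UMIs than any other member over both libraries together, 362 in control and 571 in IR (in control Col3a1 and Col4a1 had 383 each), of which B-cells held 49.4% and T and NK cells 39.4%. It was at 99.4 CPM (231 UMIs, in 23.9% of 837 cells) in control B-cells and 110 CPM (230 UMIs, in 21.4% of 835 cells) in IR B-cells. Acinar cells, whose median depth was higher, had Lamb3 UMIs in 0.525% and 1.85% of cells. After thinning to 1000 UMIs the shares were 11.1% and 10.5% in B-cells against 0% and 0.280% in acinar cells.

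In T and NK cells Lamb3 was at 22.8 CPM in control and 35.3 CPM in IR, 1.55 times. The 2 clusters named NK held 31.0 and 57.9, and 62.0 and 56.7 CPM. Of these clusters 1 was high in 6 of 6 NK markers. The other, led by Gzmm, Klrc2 and Klrc1, was high in 3 of 6, so its name is less certain. Striated duct cells had 7 UMIs in each library, 88.0 CPM (35.4 to 181) and 49.7 CPM. Lamb3 spans chr1:193207699-193343878 on the plus strand and overlaps Hsd11b1 and G0s2 on the opposite strand and non-coding genes on its own strand, in each case with 0 shared exon bases. Hsd11b1 was at 5.17 and 12.5 CPM in B-cells and 22.8 and 41.2 CPM in T and NK cells. Strand use in the counting is not given in the sources used here.

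Lamc1 in lymphocytes followed another pattern. B-cells held 84 and 90 UMIs (36.2 and 43.1 CPM, in 9.32% and 9.34% of cells). Of the T-cell clusters, that led by Tnfrsf4, Foxp3 and Ctla4, genes of regulatory T-cells, held 44 and 56 UMIs (68.0 and 39.5 CPM). That led by Trdc and Tcrg-C1, gamma-delta receptor genes, held 9 and 8 (56.6 and 56.7 CPM). The largest T-cell cluster, of 612 and 1066 cells, held 1 and 0, while its Lamb3 level was 19.6 and 32.0 CPM. Lama3, with which Lamb3 is joined in epithelial laminin, had 0 UMIs in B-cells of both libraries, where Lamb3 had 231 and 230.

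Between libraries Lamb3 stood at 1.11 times (0.919 to 1.34) and Lamc1 at 1.19 times (0.876 to 1.63) in B-cells. Chosen after their values were seen, Col6a4 had 25 and 88 UMIs in T and NK cells (6.06 and 11.3 CPM), Col11a2 12 and 44 (2.91 and 5.66 CPM), and Col27a1 6 and 13 in dendritic cells (21.9 and 25.1 CPM).

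**Figure D5:**
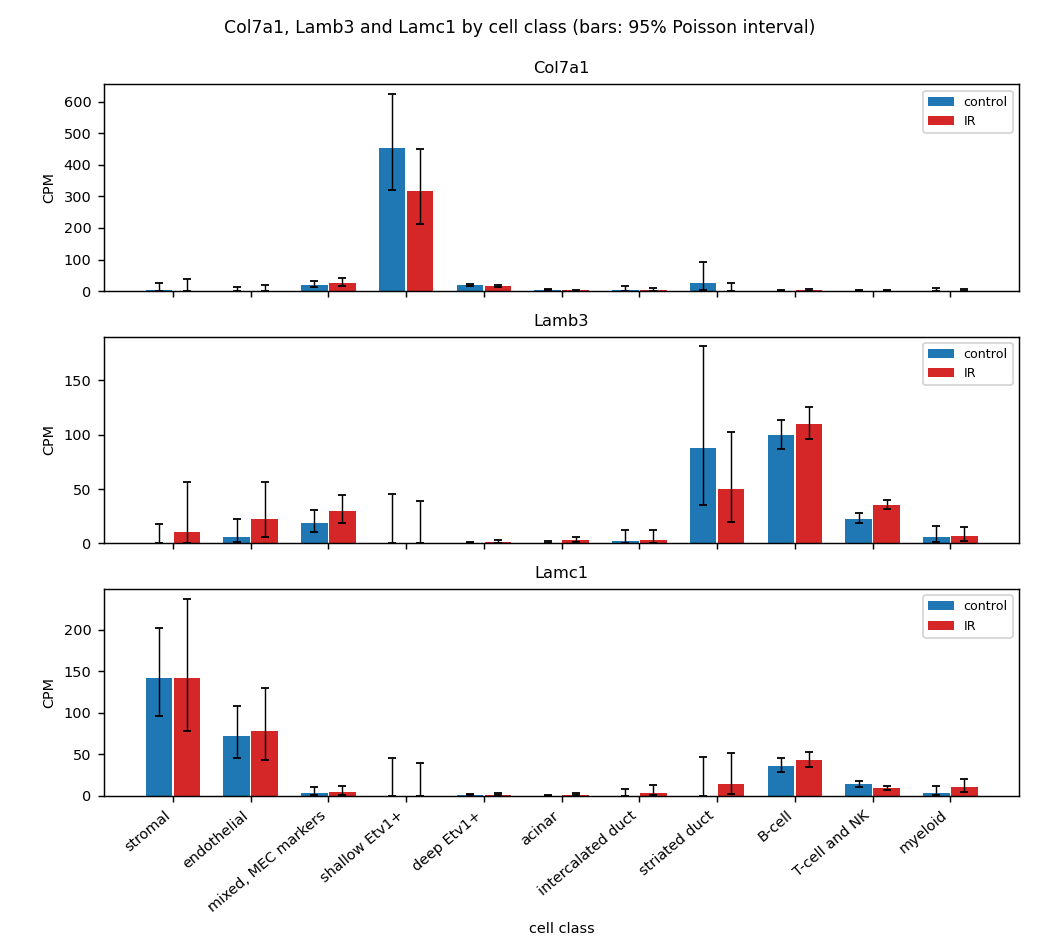
CPM of Col7a1, Lamb3 and Lamc1 in 11 groups of cells (Etv1+ cells split by depth) of the control library (blue) and the IR library (red), with exact 95% Poisson intervals. Col7a1 is highest in shallow Etv1+ cells, Lamb3 is near 100 CPM in B-cells and low in acinar and Etv1+ cells, and Lamc1 is highest in stromal cells and present in B-cells.

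Genes that make, bind or cut these proteins were read in the same cells, from lists chosen by function. In control stromal cells 17 of the 18 collagen biosynthesis genes with at least 10 UMIs (of 30 listed) were high by the rule of size, as were 9 of 9 fibril partners, 9 of 9 proteases and inhibitors and 5 of 5 basement membrane partners, where 62.5% of all genes were. In endothelial cells 8 of 8 basement membrane partners were high in control, where 67.3% of all genes were, and 6 of 6 in IR, where 54.5% were. Serpinh1, the chaperone of collagen helices, was at 848 and 748 CPM in stromal cells and 505 and 393 CPM in endothelial cells, and 0.449 and 0.249 CPM in Etv1+ cells. Sparc, a collagen-binding protein of basement membranes, was at 1352 and 929 CPM in stromal and 2390 and 2090 CPM in endothelial cells.

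In stromal cells 7 of 18 biosynthesis genes were lower in IR by 2 times or more and 0 higher, where 13.7% of all genes were lower and 13.6% higher, shares that hold for each list of these cells. Among the 7 were Loxl1, a cross-linking enzyme, with 52 UMIs in control and 3 in IR (0.124 times, 0.0247 to 0.382), and Pcolce2, a helper of procollagen cleavage, with 100 and 9 (0.193 times, 0.0858 to 0.381). Serpinh1 stood at 0.882 times (0.663 to 1.16). Of 5 basement membrane partners 3 were lower (Fbln2, Hspg2 and Nid2) and 0 higher. Of 9 fibril partners, Fbn1, Fn1 and Tnxb were lower and Bgn and Postn higher. Bgn stood at 2.22 times (1.74 to 2.84) and Postn at 3.77 times (2.48 to 5.80). Dcn, the most counted of the 9, stood at 0.900 times (0.842 to 0.961). All partner ratios given here cover every stromal cell, and the makeup of these cells differed between the libraries. Member ratios moved when the cells were narrowed. The size and direction of the partner ratios, that of Dcn included, therefore hold for the whole class only.

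Of 10 proteases and inhibitors, Timp1 and Timp2 were lower and Adamts1 higher. Of 6 collagen receptors and 2 laminin receptors 0 were past 2 times in stromal cells. In endothelial cells 0 of 10 biosynthesis genes and 1 of 8 basement membrane partners (Pxdn, lower) were past 2 times, where 9.61% of all genes were higher and 7.52% lower. Etv1+ cells held receptors for these proteins: Itgb4, the integrin chain of hemidesmosomes, was at 8.08 and 7.97 CPM, 2.13 and 3.10 times other cells, and Ddr1, a collagen receptor of epithelia, at 21.7 and 22.2 CPM, 3.36 and 4.70 times.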

How the data were processed

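Single-cell RNA of parotid glands was measured in 1 control and 1 IR library. Per the labels and methods, the authors aligned reads to mm10 with Cell Ranger 3.0.1 and analysed them with Seurat 3. The deposited files hold raw UMI counts per gene and cell. Kept barcodes, 3378 of 5550 in control and 5286 of 7793 in IR, had at least 200 genes and at most 5% mitochondrial UMIs.

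Cells were integrated and clustered in Seurat 5.3.0 (R 4.3.3) without the 55 genes (2000 variable genes, 30 components, resolution 0.3). A mixed pool of small clusters was split again (20 components, resolution 0.8), as were the Etv1+ cells. Clusters were named from fixed marker lists. Doublets were not removed: the caller in scanpy 1.11.5 marked 32 control and 1 IR cell and had not worked in IR.

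UMIs were summed per class and library and given as CPM. With 1 library per condition no test was run. Exact Poisson, Clopper-Pearson and conditional binomial intervals (scipy 1.17.1) have a level of 95%. Genes are called by size: at least 2 times, with at least 10 UMIs. The calls were tested on simulated data. Genes named are those called, those with the most UMIs, and those singled out afterwards where so stated. Members, markers and gene lists were chosen with earlier results of these data known. The repeats were read from coding sequences of GENCODE M21, in place of RefSeq proteins, which were not used here. 1 member gene is counted in the totals and is not reported here by name.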

Additional observations from a re-analysis of the deposited data

How the results depend on the processing

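With 1 library per condition, no value covers differences between mice, and counting error alone limits genes with few UMIs: 21 IR stromal cells leave most members under 30 UMIs. No paired analysis was possible because each condition has 1 library and no result comes from a test. Of the values under alternatives, 77 kept their direction and size, 28 moved and 3 reversed. The cause was not tested.

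The count of stromal members past the rule of size between libraries was 12. It was 3 with a rule of 3 times, and, chosen after seeing the data, 6 in cells with more stromal than pericyte markers and 7 without the 3 richest cells. The summed stromal ratio of 0.642 was 0.749 with classes set from fixed markers, 0.568 without the cells with the top 6% of doublet scores, 0.581 at clustering resolution 0.8, 0.872 in the narrower cells and 0.758 without the 3 richest cells.

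The count of endothelial members past the rule was 1. It was 0 with a mitochondrial limit of 10%, without abundant genes, without top doublet scores, with a rule of 3 times, in cells with under 2 stromal markers and without the 3 richest cells. It was 6 with fixed-marker classes and 0 in these without cells of epithelial clusters, 2 without integration, 3 with a rule of 1.5 times and 4 from 5 UMIs. The summed endothelial ratio of 1.14 reversed to 0.973 with the limit of 10%, to 0.478 with fixed-marker classes and to 0.919 in these without cells of epithelial clusters, so its direction depended on how cells were kept and classed.

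The count of members high in Etv1+ cells was 1. It was 2 from 500 genes per cell, without abundant genes, without top doublet scores, without integration and with 1.5 times, and 4 with fixed-marker classes. The count of Etv1+ members past the rule between libraries was 0, and was 1 with members kept among variable genes, 1 with fixed-marker classes and 4 from 5 UMIs.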

Other observations

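The glands also held cells in which members were scarce. Intercalated duct cells, 104 in control and 122 in IR, held 14 and 28 member UMIs (30.3 and 47.2 CPM), and acinar cells held 29 in each library (9.75 and 10.7 CPM). Myeloid cells held 31 and 70 (47.4 and 79.5 CPM). T and NK cells as a whole were at 53.3 CPM in control and 71.4 CPM in IR, 1.34 times, with 220 and 555 UMIs.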
